A study of Homo sapiens with 6 samples.

Results

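The HNRNP and SRSF genes encode the best known families of RNA-binding proteins that set which exons are kept in messenger RNA. Members were taken by symbol: every protein-coding gene of GENCODE release 29 in the deposited table whose symbol starts with HNRNP, or with SRSF followed by a digit. The rule found 33 of the 18278 listed genes, 22 HNRNP genes and 11 SRSF genes, and all 33 passed the filter on low values (a mean normalized read count of 10 or more). The HNRNP set includes HNRNPA1P48 and HNRNPA1L2, separate copies of HNRNPA1 that the release types as protein-coding. HNRNPCL1, HNRNPCL2, HNRNPCL3, HNRNPCL4, HNRNPUL2-BSCL2 and SRSF12 have no row in the table and were not analysed here. A further 12 rows with these names are pseudogenes in that release and were kept apart.

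The cells were Toledo, an established human line from a diffuse large B cell lymphoma grown in suspension in RPMI 1640. Messenger RNA of 3 samples treated with TP-064 at 5 uM and of 3 samples treated with the solvent DMSO was sequenced after 6 days. CARM1, an arginine methyltransferase, is the target of the inhibitor TP-064. The study concerned lymphomas with mutations in CREBBP or EP300. All samples come from 1 line, and the labels do not say whether replicates were separate cultures, so a p-value here reflects no more than the variation among these samples, which could be technical.

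Heterogeneous nuclear ribonucleoproteins (hnRNPs) coat nascent transcripts and often favour skipping of the exons near which they bind. SR proteins carry a domain rich in arginine and serine, bind exonic enhancers and help to recruit the spliceosome, the particle that cuts out introns. Many members of each family hold down their own level through an exon or intron whose use sends the transcript to nonsense-mediated decay. CARM1 is known to methylate several splicing proteins, among them SNRPB, SNRPC and SF3B4, and in lymphocytes the hnRNP HNRNPLL is known for its control of CD45 splicing. Comparing TP-064 with DMSO shows how the mRNA of these regulators differed after prolonged inhibition of CARM1.

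Most members of both families were lower after TP-064. In the HNRNP family 19 of 22 genes fell, 1 rose and 2 did not pass the test. In the SRSF family 9 of 11 fell and 2 rose. The test was limma on log2(normalized read count + 1), with a Benjamini-Hochberg adjusted p under 0.05 over all 16048 genes tested, where 65.1% of genes were called, 33.3% lower and 31.9% higher. Of protein-coding genes alone 73.6% were called, 39.3% lower and 34.3% higher. The median log2 fold change (TP-064 minus DMSO) was -0.58 over the HNRNP genes and -0.53 over the SRSF genes, beside 0.01 over all genes tested. Among the 7178 tested genes whose mean was 1000 or more, a level chosen after the values were seen that all members but HNRNPA1L2, HNRNPLL and HNRNPA1P48 reach, 80.3% were called, 47.4% lower and 33.0% higher, with a median of -0.07. Against a null of a 1.2-fold change, 17 HNRNP and 8 SRSF genes were lower and 1 of each was higher, where 18.1% of all genes were lower and 16.7% higher. In bulk RNA, a lower value can come from fewer cells that carry a transcript or from less of it per cell, and these cannot be told apart here.

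**Figure D1:**
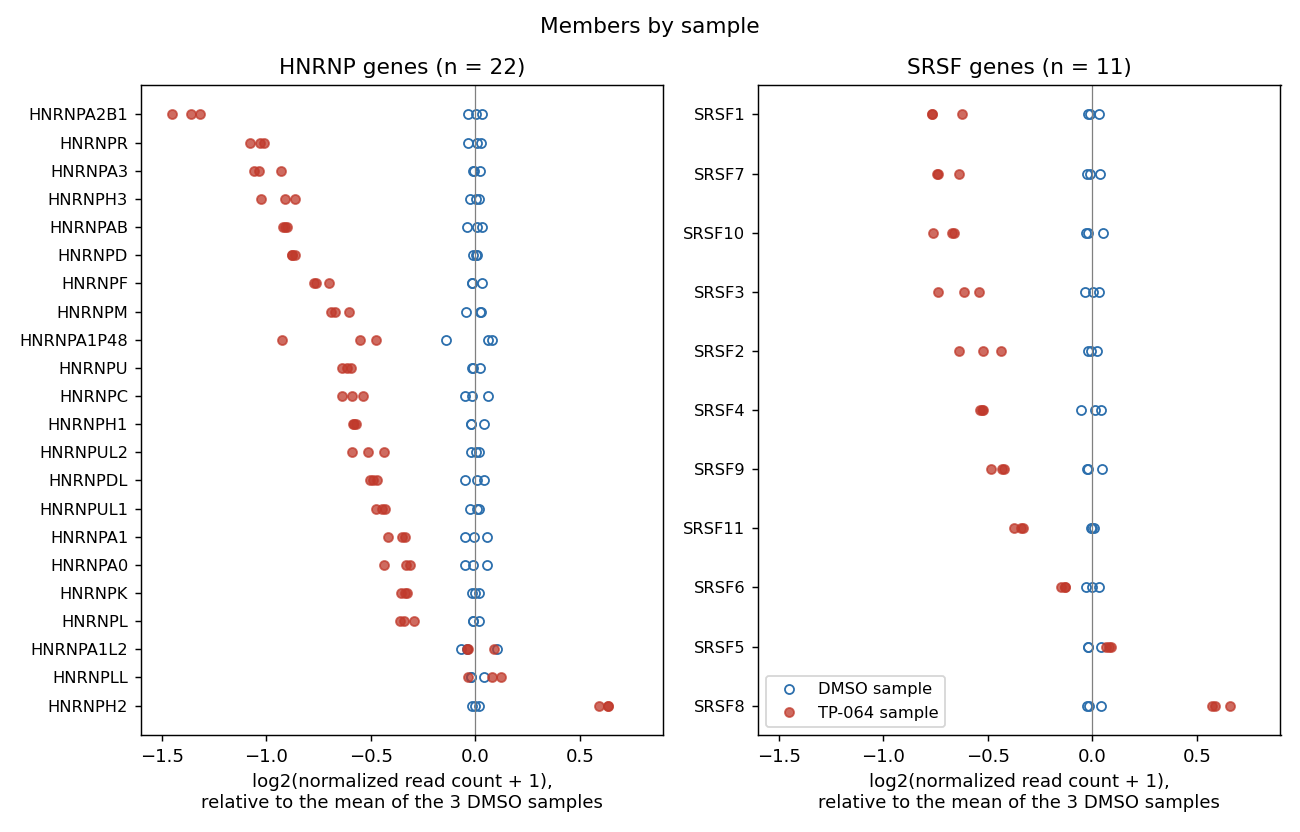
Each point is 1 sample, and the x axis gives its log2(normalized read count + 1) minus the mean of the 3 DMSO samples, with HNRNP genes on the left and SRSF genes on the right, ordered by fold change. The 3 TP-064 samples lie left of all DMSO samples for 19 HNRNP and 9 SRSF genes, and right of them for HNRNPH2, SRSF8 and SRSF5, where 35.2% and 33.9% of all genes tested lie wholly lower or higher.

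The medians of the families lay close together. HNRNP genes ran from a log2 fold change of -1.38 to 0.62, and SRSF genes from -0.72 to 0.61. A fall of at least 2-fold was found for 3 HNRNP genes and 0 SRSF genes, where 6.56% of all genes tested fell that far. The 3 were HNRNPA2B1, HNRNPR and HNRNPA3. With library size scaling only HNRNPA2B1 fell that far, and with TMM scaling or edgeR 2 genes did, HNRNPA2B1 and HNRNPR. The SRSF gene that fell furthest, SRSF1, was at -0.72. Within each sample, the HNRNP median relative to the DMSO mean minus the SRSF median was -0.07 ± 0.06 with TP-064, against -0.00449 ± 0.00750 with DMSO (SD, n = 3 each). That gap is about as large as its spread over the TP-064 samples, and members are not replicates, so the families were not tested against each other.

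The 22 HNRNP genes added up to 315533 ± 4311 normalized read counts in the TP-064 samples, against 461524 ± 9139.6 in the DMSO samples (SD, n = 3 each), so that 68.4% of the DMSO level was left. The 11 SRSF genes came to 109415 ± 3400 and 150050 ± 2991, or 72.9%. The ratio of the HNRNP to the SRSF sum was 2.91, 2.81 and 2.93 in TP-064 replicates 1, 2 and 3 and 3.08, 3.08 and 3.07 in DMSO replicates 1, 2 and 3. The groups do not overlap in this ratio, which does not depend on how samples were scaled and was not tested. Of single genes tested, 35.2% lay wholly lower and 33.9% wholly higher. A few abundant genes carry these sums. HNRNPA1, HNRNPU, HNRNPK, HNRNPC and HNRNPH1 held 60.4% of the HNRNP sum in DMSO, and SRSF3, SRSF2, SRSF1, SRSF6 and SRSF7 held 70.6% of the SRSF sum. When counts per kilobase of exon were summed instead, the families lay closer together. The HNRNP genes then kept 70.0% of the DMSO level and the SRSF genes 72.7%.

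Sequences before RefSeq start sites were read for the largest falls in each family and for HNRNPH2 and SRSF8, which rose, since members of 1 family moved in opposite directions. RefSeq promoter windows on GRCh38.p14 matched 30 of 33 members by symbol. HNRNPA1, HNRNPA1P48 and SRSF2 were not matched. The 250 bases before the most upstream RefSeq start are given 5′ to 3′ on the strand of the gene, with the CCAAT box in capitals on either strand. The Sp1 motif GGGCGG is also in capitals on either strand. The windows are chr7:26200747-26200996, minus strand (HNRNPA2B1); chr1:23344285-23344534, minus strand (HNRNPR); chr17:58007247-58007496, minus strand (SRSF1); chr2:38751495-38751744, minus strand (SRSF7). Those of the other two are chrX:101407972-101408221, plus strand (HNRNPH2) and chr11:95066627-95066876, plus strand (SRSF8). Starts differ between annotations: of the 250 bases, all lie inside the GENCODE gene for HNRNPA2B1, 100 for SRSF1 and 52 for HNRNPR, and 0 for SRSF7, HNRNPH2 and SRSF8.
HNRNPA2B1: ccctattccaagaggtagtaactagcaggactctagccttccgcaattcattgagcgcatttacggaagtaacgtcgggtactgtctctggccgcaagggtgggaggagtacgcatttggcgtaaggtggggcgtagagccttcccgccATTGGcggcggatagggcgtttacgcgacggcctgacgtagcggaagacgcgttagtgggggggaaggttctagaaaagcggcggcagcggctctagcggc
HNRNPR: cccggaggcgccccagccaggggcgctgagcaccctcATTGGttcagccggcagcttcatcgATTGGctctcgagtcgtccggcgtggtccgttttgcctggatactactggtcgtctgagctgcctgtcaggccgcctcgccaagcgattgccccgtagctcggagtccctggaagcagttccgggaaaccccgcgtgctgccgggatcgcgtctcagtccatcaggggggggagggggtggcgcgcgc
SRSF1: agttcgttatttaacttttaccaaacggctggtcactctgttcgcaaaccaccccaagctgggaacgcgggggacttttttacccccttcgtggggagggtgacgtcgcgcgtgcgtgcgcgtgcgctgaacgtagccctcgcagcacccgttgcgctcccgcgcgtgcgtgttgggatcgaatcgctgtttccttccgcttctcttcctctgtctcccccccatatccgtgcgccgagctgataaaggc
SRSF7: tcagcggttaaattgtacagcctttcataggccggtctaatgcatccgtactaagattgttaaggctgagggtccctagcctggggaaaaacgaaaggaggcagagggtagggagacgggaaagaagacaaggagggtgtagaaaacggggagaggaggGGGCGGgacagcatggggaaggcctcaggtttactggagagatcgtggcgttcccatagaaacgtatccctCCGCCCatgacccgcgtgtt
HNRNPH2: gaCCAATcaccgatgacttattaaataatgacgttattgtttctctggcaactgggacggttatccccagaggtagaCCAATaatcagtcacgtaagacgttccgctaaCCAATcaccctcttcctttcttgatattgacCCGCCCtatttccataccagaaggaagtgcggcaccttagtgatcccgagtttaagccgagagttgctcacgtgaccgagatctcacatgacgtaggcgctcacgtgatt
SRSF8: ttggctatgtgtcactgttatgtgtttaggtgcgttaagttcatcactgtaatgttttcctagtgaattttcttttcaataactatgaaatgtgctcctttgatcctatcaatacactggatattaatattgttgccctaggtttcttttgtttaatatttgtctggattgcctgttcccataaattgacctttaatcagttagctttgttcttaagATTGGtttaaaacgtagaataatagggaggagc
HNRNPH2 holds 3 CCAAT and 1 GGGCGG matches in its window, HNRNPR 2 CCAAT, HNRNPA2B1 and SRSF8 1 CCAAT each, SRSF7 2 GGGCGG, and SRSF1 neither.

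Over all matched members, CCAAT stood in 16 of 30 windows, 14 of 20 HNRNP and 2 of 10 SRSF, against 33.0% of the 27305 genes with such a window. These 27305 outnumber the 18278 genes listed in these data, so they include genes with no values here. Shares among the genes tested were not counted. GGGCGG stood in 19 of 30, 16 of 20 HNRNP and 3 of 10 SRSF, against 42.2%. By direction, CCAAT was in 13 of 25 windows of genes that fell and 2 of 3 of genes that rose, and GGGCGG in 16 of 25 and 1 of 3. The ETS motif CCGGAAG was in 5 of 30 (8.78% of all), the TATA box TATAAA in 4 (11.2%) and the E2F motif TTTCCCGC in 2, HNRNPLL and SRSF10 (1.42%). TTTGGCGC, another E2F form, the NRF1 motif, TGACGTCA (the cAMP response element) and AAGATGGC (a YY1 motif) were in 0 of 30 windows, against 0.542%, 1.13%, 1.75% and 1.39% of all. Motifs were counted on both strands, GGGCGG can overlap TTTCCCGC, and a match is only a match of letters.

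Values below are normalized read counts in TP-064 replicates 1, 2 and 3 and then in DMSO replicates 1, 2 and 3, and a gene given as being at a value, or as rising by it, has that log2 fold change. HNRNPA2B1, which binds UAG-rich RNA and sorts transcripts and microRNAs, had the largest fall of both families. It lies on chromosome 7 from 26173057 to 26201529 on the minus strand of GRCh38. Its values were 10405, 9790.5 and 10734 with TP-064, against 27294, 26811 and 26127 with DMSO. Each treated sample lay well under the lowest control, and the log2 fold change came to -1.38 (SE 0.04, limma adjusted p = 2.11e-13). Its closest relatives in the A/B group moved by unequal amounts. HNRNPA3, on chromosome 2 from 177212563 to 177223958, gave 1726, 1695 and 1856 with TP-064, against 3504, 3583 and 3513 with DMSO (log2 fold change -1.01, SE 0.04, limma adjusted p = 1.87e-11). HNRNPA1, which shuttles mRNA out of the nucleus and blocks exon use, was the most abundant member, on chromosome 12 from 54280193 to 54287088. Its values were 69043, 73102 and 72534 with TP-064, against 89308, 96058 and 91861 with DMSO. The groups stood apart, but its log2 fold change (-0.37, SE 0.04; limma adjusted p = 1.46e-06) was far smaller than those of HNRNPA2B1 and HNRNPA3. HNRNPA0, an intronless gene that binds AU-rich elements, was at a log2 fold change of -0.36.

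Copies of HNRNPA1 did not follow it together. HNRNPA1L2, an intronless copy on chromosome 13 from 52642425 to 52643796, gave 716, 719 and 783 with TP-064, against 703, 792 and 717 with DMSO. The groups overlap, and the log2 fold change (0.00, SE 0.06) did not pass the test (limma adjusted p = 0.956). HNRNPA1P48, the least abundant member by total count, gave 155, 201 and 211 with TP-064, against 267, 307 and 311 with DMSO (log2 fold change -0.65, SE 0.12). Of the 12 pseudogene rows, 4 fell under the filter. Of those tested, 3 were lower (HNRNPCP2, HNRNPA1P7 and HNRNPA1P10), HNRNPCP1 was higher and 4 were not called. Over all genes tested 33.3% were lower and 31.9% higher. Reads can be shared between such near-identical copies and their parents, so the values of HNRNPA1, HNRNPA1L2, HNRNPA1P48, HNRNPC and HNRNPA3 are uncertain to that extent.

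The D-type proteins, which bind AU-rich elements and act in mRNA decay as well as splicing, also fell. HNRNPAB read 6830.0, 6782 and 6745 with TP-064, against 13042, 12804 and 12416 with DMSO, with replicates of the treated group within a narrow band. Its log2 fold change came to -0.91 (SE 0.03, limma adjusted p = 3.58e-12). HNRNPD, also known as AUF1, read 3065, 3058 and 3092 with TP-064, against 5578, 5644 and 5642 with DMSO (log2 fold change -0.87, SE 0.03, limma adjusted p = 6.37e-12). HNRNPDL, a close relative of HNRNPD, fell from a higher level, at -0.49.

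HNRNPR, a relative of SYNCRIP that binds mRNA in nucleus and cytoplasm, had the second largest fall. Its gene lies on chromosome 1 from 23303771 to 23344336, and its values were 7839.5, 8200.0 and 8103 with TP-064, against 16145, 16871 and 16631 with DMSO. All 3 treated samples lay near 50% of the controls, at 48.6% by the means (log2 fold change -1.04, SE 0.03, limma adjusted p = 1.11e-12). HNRNPM, which binds GU-rich RNA, read 8285, 8171 and 8691 with TP-064, against 12782, 13384 and 13437 with DMSO (log2 fold change -0.66, SE 0.04). HNRNPC, which measures the length of nascent transcripts and binds U tracts, fell by a log2 fold change of -0.59, and HNRNPK, which binds C-rich RNA, by -0.34. HNRNPU, the scaffold attachment factor of the nuclear matrix, was at -0.62, and its relatives HNRNPUL2 and HNRNPUL1 at -0.51 and -0.45. The read-through gene HNRNPUL2-BSCL2 covers 2391 of the 5416 exon bases of HNRNPUL2 on the same strand. In each of these genes no treated sample reached the lowest control.

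The F/H group, whose proteins bind runs of G, held the 1 HNRNP gene that rose. HNRNPF gave 16209, 17037 and 16330.1 with TP-064, against 27406, 28301 and 27341 with DMSO (log2 fold change -0.74, SE 0.03, limma adjusted p = 6.03e-11). HNRNPH3 gave 1371, 1226 and 1325 with TP-064, against 2451, 2501 and 2524 with DMSO (log2 fold change -0.93, SE 0.05, limma adjusted p = 1.55e-10). HNRNPH1, the most abundant H gene by read count, was at -0.58. HNRNPH2, a close relative of HNRNPH1 on chromosome X from 101408295 to 101414133, went the other way and read 5149, 5307 and 5316 with TP-064, against 3384, 3465 and 3413 with DMSO. Every treated sample was above every control, and the log2 fold change came to 0.62 (SE 0.03, limma adjusted p = 4.81e-10). The read-through gene RPL36A-HNRNPH2 covers 362 of its 2223 exon bases on the same strand.

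HNRNPL and HNRNPLL form the L group, which binds CA repeats. HNRNPL was lower at -0.33 (SE 0.03). HNRNPLL, on chromosome 2 from 38561978 to 38603586, gave 802, 826 and 740.3 with TP-064, against 749, 749 and 779.7 with DMSO. The groups overlap, and its log2 fold change of 0.06 (SE 0.06) did not pass the test (limma adjusted p = 0.414). Library size scaling, an alternative, put it at 0.18, where it passed.

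Among SR proteins, the largest falls were in SRSF1, SRSF7 and SRSF10. SRSF1, the prototype of the family, lies on chromosome 17 from 58003360 to 58007346 and gave 13474, 14888 and 13475 with TP-064, against 22612, 23425 and 22735 with DMSO. TP-064 replicate 2 was the highest of the treated samples and still lay far under the controls, and the log2 fold change came to -0.72 (SE 0.04, limma adjusted p = 6.91e-10). The gene AC015813.2 covers 1890 of its 3340 exon bases on the same strand, with the treatment of such reads not given in the sources used here. SRSF7, which has a zinc knuckle and links splicing to mRNA export, lies on chromosome 2 from 38743599 to 38751494 and gave 8214, 8818 and 8225 with TP-064, against 13637, 14112 and 13477 with DMSO (log2 fold change -0.71, SE 0.04, limma adjusted p = 2.73e-10). SRSF10, a splicing repressor when dephosphorylated, gave 6944, 7377 and 7425 with TP-064, against 11606, 12191 and 11507 with DMSO (log2 fold change -0.70, SE 0.04, limma adjusted p = 3.54e-10). No treated value of these 3 genes came near a control value.

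SRSF3, the smallest SR protein and an export adaptor, gave 16120.4, 18487 and 17555 with TP-064, against 26243, 27501 and 26941 with DMSO. The treated samples spread more than the controls here but did not overlap them (log2 fold change -0.63, SE 0.04, limma adjusted p = 9.07e-09). SRSF2, which binds exonic enhancers and is mutated in myeloid disease, gave 16284, 17290.1 and 15030.2 with TP-064, against 23113, 23826 and 23344 with DMSO (log2 fold change -0.53, SE 0.04). SRSF9, a close relative of SRSF1, gave 4960.3, 5146 and 5185 with TP-064, against 6844, 7182 and 6833 with DMSO (log2 fold change -0.45, SE 0.04). SRSF11, a more distant member, gave 6371, 6185 and 6323 with TP-064, against 8002, 7985 and 8057 with DMSO (log2 fold change -0.35, SE 0.03). By the means, SRSF3 kept 64.6% of its DMSO level, SRSF2 69.2%, SRSF9 73.3% and SRSF11 78.5%.

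SRSF4, SRSF5 and SRSF6 are close relatives with paired RNA-binding domains, and they differed. SRSF4 gave 4321, 4287 and 4319 with TP-064, against 5981, 6404 and 6280.0 with DMSO (log2 fold change -0.53, SE 0.04, limma adjusted p = 5.02e-09). SRSF6 gave 17128, 17357 and 17334 with TP-064, against 18575, 19421 and 18964 with DMSO. Its log2 fold change (-0.14, SE 0.03; limma adjusted p = 0.00188) was small, and library size scaling left it at -0.01 and not called. SRSF5 gave 8273, 8374 and 8429 with TP-064, against 7798, 8154 and 7789 with DMSO. The lowest treated sample lay just above the highest control, and the rise of 0.08 (SE 0.03) passed narrowly (limma adjusted p = 0.0495). That call was lost in 8 of 17 alternatives, among them leaving out any TP-064 replicate or DMSO replicate 1 or 3, while library size scaling gave 0.20.

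SRSF8 was the 1 SRSF gene with a large rise. It arose as a copy of SRSF2 mRNA and lies on chromosome 11 from 95067197 to 95071224. Its values were 4769, 5063 and 4812 with TP-064, against 3149.8, 3168 and 3294 with DMSO. All treated samples were above all controls (log2 fold change 0.61, SE 0.04, limma adjusted p = 1.87e-09), a change close to that of HNRNPH2.

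Ratios of related members within a sample do not depend on scaling between samples, and 8 such pairs, chosen after the values were seen, were compared per kilobase of exon. The level of each ratio depends on the annotated exon lengths, while its fold difference between groups does not. The ratio of HNRNPH2 to HNRNPH1 was 0.780, 0.799 and 0.808 with TP-064, against 0.348, 0.341 and 0.351 with DMSO, a 2.30-fold difference of the means. For SRSF8 to SRSF2 it was 0.219, 0.219 and 0.240 with TP-064, against 0.102, 0.0996 and 0.106 with DMSO, or 2.21-fold. In each case the relative that was scarcer under DMSO made up a larger part after TP-064. The ratio of HNRNPA2B1 to HNRNPA1 went down and was 0.0828, 0.0736 and 0.0813 with TP-064, against 0.168, 0.153 and 0.156 with DMSO. SRSF5 to SRSF4 stood at 3.18, 3.24 and 3.24 with TP-064, against 2.16, 2.11 and 2.06 with DMSO, and SRSF6 to SRSF4 at 7.76 ± 0.0830 against 5.91 ± 0.0898 (SD, n = 3 each). The remaining pairs were HNRNPLL to HNRNPL (0.0652 ± 0.00313 against 0.0499 ± 0.000615), HNRNPA3 to HNRNPA1 (0.0208 ± 0.00106 against 0.0323 ± 0.000816) and HNRNPH3 to HNRNPH1 (0.0819 ± 0.00499 against 0.104 ± 0.00275). The groups did not overlap in any of the 8 pairs, a description of pairs picked for their values, where 35.2% of single genes tested lay wholly lower and 33.9% wholly higher. Each exact two-sided permutation test gave p = 0.1, adjusted p = 0.1, which is the smallest that 3 samples against 3 can give. As the pairs were picked for their values, these p-values lend no support to a difference.

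**Figure D2:**
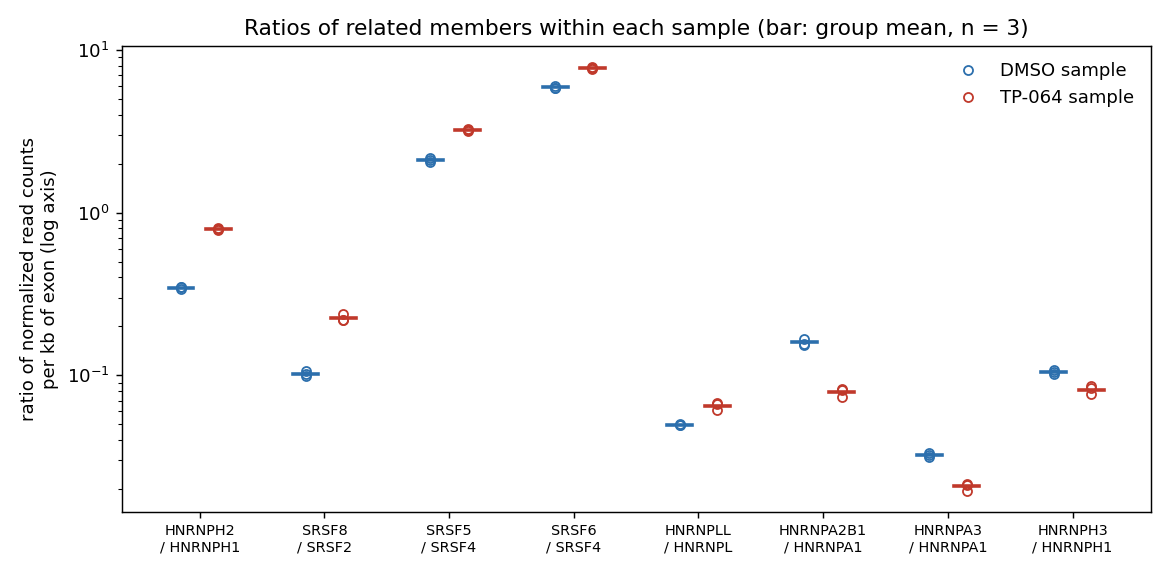
The y axis (log scale) gives the ratio of normalized read counts per kilobase of exon for 8 pairs of related genes, with 1 circle per sample and a bar at each group mean (n = 3). HNRNPH2 to HNRNPH1 and SRSF8 to SRSF2 lie higher after TP-064, at 0.795 against 0.346 and at 0.226 against 0.102, while HNRNPA2B1 to HNRNPA1 lies lower.

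Levels between genes were compared as normalized read counts per kilobase of exon. The length joins the exons of all annotated transcripts, so the order of genes depends on the annotation. HNRNPU, with a mean of 51926 counts in DMSO over 22512 exon bases, came to 2307 per kilobase. HNRNPF, with 27683 counts over 3253 bases, came out above it. HNRNPA1 was highest in DMSO at 18144 ± 669, followed by HNRNPK at 9084 ± 115 and HNRNPF at 8509.9 ± 165 (SD, n = 3). HNRNPLL and HNRNPA1P48 were lowest, at 128 ± 3.04 and 153 ± 12.8. Among SR genes SRSF2 (7765 ± 121) and SRSF1 (6864 ± 131) led, and SRSF4 (699.6 ± 24.5) and SRSF8 (795 ± 19.5) were lowest. After TP-064, SRSF8 reached 1212 ± 39.5 per kilobase, above SRSF10 at 705 ± 25.8 and SRSF11 at 743 ± 11.4, which had both been above it. That order rests on the annotated lengths: by mean read count after TP-064, SRSF8 stayed under both, at 4881 against 7248 for SRSF10 and 6293 for SRSF11. HNRNPH2 rose to 2365 ± 42.2 per kilobase, while HNRNPA2B1 went from 2886 ± 63.3 to 1113 ± 51.7. Across the 33 members, the log2 fold change was only weakly related to the log2 DMSO level per kilobase (Pearson r of -0.16, Spearman rho of -0.12). Within the HNRNP family r was -0.12 and rho -0.04, and within the SRSF family -0.43 and -0.44. The DMSO level enters both quantities, and these values only describe genes of the same 6 libraries.

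**Figure D3:**
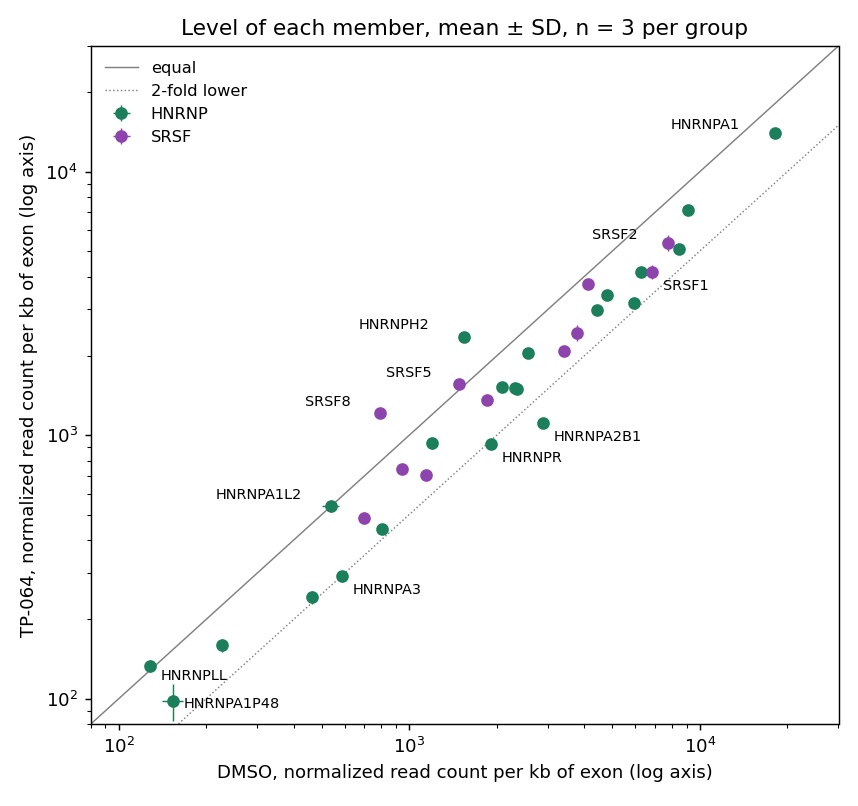
Each point is a gene, with normalized read counts per kilobase of exon after DMSO on the x axis and after TP-064 on the y axis (log axes, mean ± SD, n = 3 per group). Most points lie between the line of equal levels and the dotted line of a 2-fold fall, HNRNPA2B1, HNRNPR and HNRNPA3 lie under the dotted line, and HNRNPH2 and SRSF8 lie clearly above the line of equality.

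Several members share a start region with another gene, and those neighbours were also measured. Within 1 kilobase, 8 members had a protein-coding neighbour that starts in the opposite direction: 7 of these neighbours fell, 1 did not pass the test, and their median log2 fold change was -0.46, where 39.3% of protein-coding genes tested were lower. CBX5, a heterochromatin protein whose start lies 60 bases from that of HNRNPA1, fell more than it did, at -0.83 (SE 0.03, limma adjusted p = 1.06e-11). It read 6169, 5914 and 6016 with TP-064, against 10736, 10859 and 10577 with DMSO. RMI1, a partner of the BLM helicase 95 bases from HNRNPK, was at -1.43 (SE 0.09). GLA, a lysosomal galactosidase 283 bases from HNRNPH2, fell (log2 fold change -0.55, SE 0.04) while HNRNPH2 rose, and read 1414, 1412 and 1397 with TP-064, against 2139, 1978 and 2090.4 with DMSO. ENOPH1 beside HNRNPDL, LRRC40 beside SRSF11, DYNLL1 beside SRSF9 and GEMIN6 beside SRSF7 were at -0.73, -0.36, -0.27 and -0.21, and TTC9C beside HNRNPUL2 was at 0.10 and not called. CBX3, whose exons overlap those of HNRNPA2B1 by 368 bases on the other strand, was at -0.49 (SE 0.04).

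In 11 cases exons of a member and of a listed gene overlap on opposite strands, with the strand setting not given in the sources used here. Of these 11 partners 5 rose, 2 fell and 4 were not called, where 31.9% of all genes tested were higher and 33.3% lower. MFSD11, which covers 1106 of the 3017 exon bases of SRSF2, gave 1107, 1093 and 1399 with TP-064, against 988, 949 and 1051 with DMSO, and GATC, over 1729 of the 3744 bases of SRSF9, rose by 0.27. COX20, over 3502 of the 22512 bases of HNRNPU, rose by 0.41. TP-064 replicate 3 stood apart in 3 partners of low count: AL354733.3, opposite HNRNPK, read 149 there and at most 9.94 in the other 5 samples. AC136469.2, opposite HNRNPM, read 68.0 against at most 31.1, and AC015813.5, opposite SRSF1, 101 against at most 63.3. Without TP-064 replicate 3 the counts of lower genes were the same, 19 HNRNP and 9 SRSF, and HNRNPH2 and SRSF8 were still higher.

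The annotation sets the families apart in the transcripts it lists. All 11 SRSF genes have at least 1 transcript typed as a target of nonsense-mediated decay, against 13 of 22 HNRNP genes and 43.8% of the 12166 protein-coding genes tested. Gene counts add all transcripts together, so the share of such transcripts in each group was not measured. HNRNPA0 and HNRNPA1L2 have a single exon, and HNRNPH2, SRSF8 and HNRNPA1P48 have at most 2. Of these 5 members with few exons 2 rose, 2 fell and 1 was not called. Of protein-coding genes tested 34.3% were higher and 39.3% lower, near those shares.

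Other splicing genes were taken from lists made with earlier results of these data known. Of all protein-coding genes tested 39.3% were lower and 34.3% higher, and of genes with a mean of 1000 or more 47.4% and 33.0%. Of 18 hnRNP and related RNA-binding proteins with other symbols, 17 were lower and 1 higher, with a median of -0.54. With library size scaling 16 were lower and 1 higher, with a median of -0.42. KHSRP, which binds AU-rich elements, was at -0.87 (SE 0.04, limma adjusted p = 1.66e-11), while MSI2, a translational regulator, rose by 0.63. Core particles fell almost throughout: 10 of 11 Sm and U1 snRNP genes were lower with a median of -0.65 (SNRPD1 at -1.09, SNRPG at -1.01), 18 of 18 genes of the U2 snRNP and the 3′ splice site with a median of -0.49 (DHX15 at -0.70, SNRPA1 at -0.90), and 21 of 22 of the U4/U6.U5 tri-snRNP with a median of -0.46 (PRPF4 at -0.75, PPIH at -0.83). None of these core lists had a higher call. With library size scaling 9, 16 and 19 genes of these lists, in that order, were lower and 0 higher. Their medians were then -0.53, -0.36 and -0.34.

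Lists of regulators held calls in both directions. So did protein-coding genes tested, with 39.3% lower and 34.3% higher, and genes with a mean of 1000 or more, with 47.4% and 33.0%. Of 25 SR-related proteins 15 fell and 4 rose, with a median of -0.21: PNN and TRA2B were at -0.95 and -0.72, and RSRC1 rose by 0.56. With library size scaling 12 of the 25 fell and 6 rose, with a median of -0.09. Of 14 kinases and phosphatases of SR proteins 8 fell and 4 rose, with a median of -0.15, and with library size scaling 6 fell and 5 rose, with a median of -0.03. SRPK1, the kinase that phosphorylates SR proteins for nuclear import, read 5817, 5755 and 5901 with TP-064, against 9893, 9986 and 10130.0 with DMSO (log2 fold change -0.78, SE 0.03, limma adjusted p = 1.57e-11). PPP1CA, a catalytic subunit of protein phosphatase 1, was at -0.89, and DYRK1B, a kinase linked to quiescence, rose by 1.58 (SE 0.04). Of 19 other sequence-specific splicing regulators 13 fell and 6 rose, with a median of -0.38, among them MBNL3 (-0.97), MBNL1 (-0.74) and RBM5 (0.64). With library size scaling 12 of the 19 fell and 6 rose, with a median of -0.25.

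Of 15 factors of nonsense-mediated decay 10 fell and 3 rose, with a median of -0.18, where 39.3% of protein-coding genes tested were lower and 34.3% higher. With library size scaling 7 fell and 4 rose, with a median of -0.06. EIF4A3, the helicase core of the exon junction complex, rose by 1.03 (SE 0.03, limma adjusted p = 1.56e-12), to 32841, 34619 and 34081 with TP-064, against 16587, 16932 and 16318 with DMSO. Its partner MAGOHB moved the other way by -1.25 (SE 0.07), and UPF3B was at -0.59. All 7 import receptors were lower, with a median of -0.45, led by KPNA2 (-1.20) and IPO5 (-0.88). With library size scaling 6 of them were lower, with a median of -0.32. Of 13 arginine methyltransferases and known CARM1 substrates in splicing 10 fell and 2 rose, with a median of -0.28, and with library size scaling 10 fell and 3 rose, with a median of -0.15. SNRPB was at -1.05, and PRMT9, which methylates SF3B2, rose by 0.26.

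**Figure D4:**
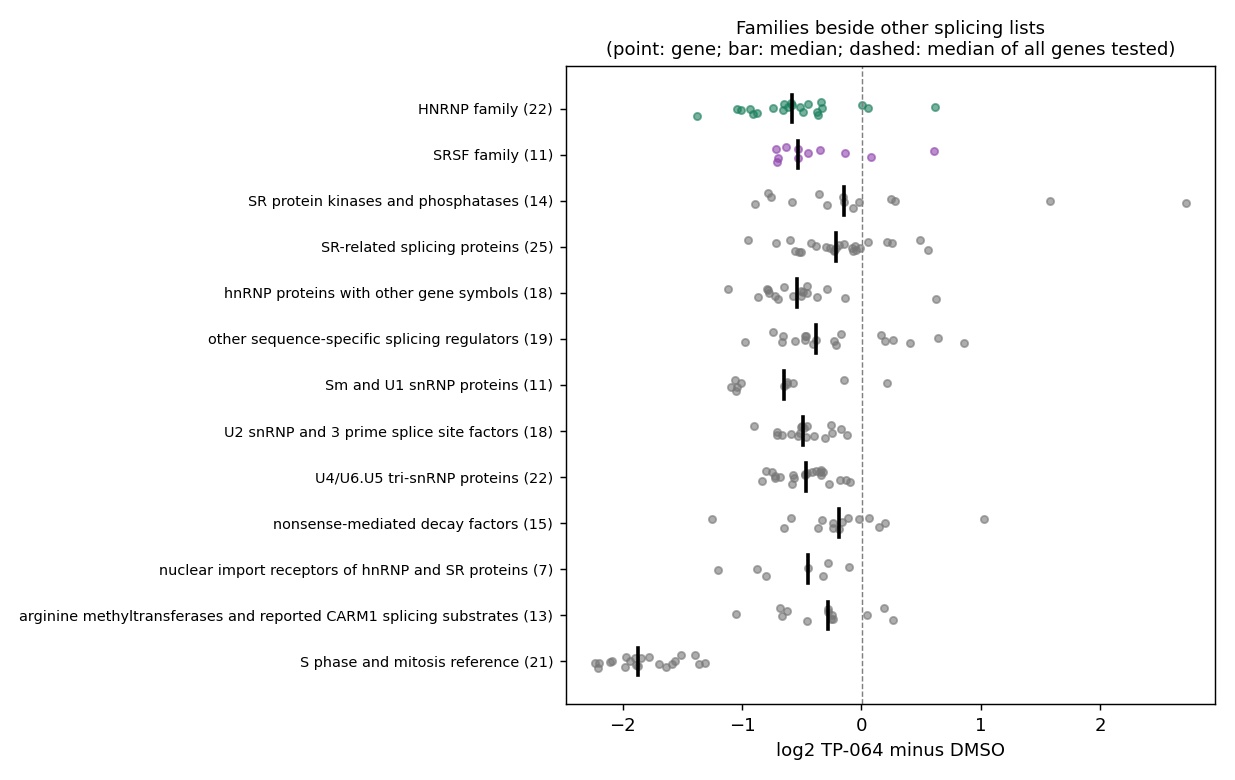
Each point is a gene at its log2 fold change (TP-064 minus DMSO), each bar a list's median, and the dashed line the median of all genes tested. The medians of the HNRNP and SRSF genes, -0.58 and -0.53, lie near those of the snRNP lists and far from that of the S phase and mitosis list at -1.87.

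Genes of S phase and mitosis moved with these results. All 21 of that list were lower with a median of -1.87, among them BUB1B (-2.11) and TOP2A (-1.89), and their part in the fall of the splicing genes was not tested. The libraries held 41354131 to 48360867 reads in listed genes. Scaling to library size in place of the deposited size factors moved the median of all genes to 0.13 and the share of calls that were higher to 61.6% from 48.9%. The family medians were then -0.46 and -0.41, with 19 HNRNP and 8 SRSF genes lower and 2 of each higher. B cell markers fitted the label, with 6 of 6 listed at a sum of 94699.6 to 101945 normalized read counts after TP-064 and 99114 to 101027 after DMSO. Of the germinal centre markers 4 of 5 were listed, at 23968 to 24708 and 18239.8 to 18848. None of 4 T cell markers was listed, 3 myeloid markers summed to 71.2 to 99.5 and 34.6 to 65.6, and 2 epithelial and stromal markers to 144 to 155 and 286 to 315.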

How the data were processed

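Messenger RNA was measured in 6 samples, 3 per group, grouped by title. The build hg38 and the tools TopHat2 2.0.10, HTSeq 0.6.0 and DESeq 1.18.0 are named per the submitters' processing notes. Annotation, strand setting and row filter: not given in the sources used here. The authors deposited a signal per gene and sample, which by the steps between its values is a read count divided by a size factor. Values were whole multiples of a step within a tolerance of 0.001 in 100% of cases, but for the second replicate of each group the step is too near 1 for the recovery of reads to be checked.

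Symbols, coordinates and exon lengths came from GENCODE release 29 on GRCh38, matched by identifier without version for 18214 of 18278 genes. limma 3.58.1 in R 4.3.3 was fitted with a trend on log2(value + 1), which understates changes of low genes. The fit left out 2230 genes with a mean under 10, was unblocked with 4 residual degrees of freedom, and was tested on simulated data. Far fewer genes were changed in that simulation than were called here, so it does not check the fit under changes this wide. Alternatives were edgeR 4.0.16 and DESeq2 1.42.0 on recovered reads, TMM and library size scaling, other filters and pseudocounts, a replicate block, a null of a 1.2-fold change, a threshold of 0.01 and each replicate left out. Members and lists were chosen with earlier results of these data known. Values in all samples were given for at most 8 called members per family by smallest p in the commoner direction, 4 in the rarer one and 3 not called. From each list at most 2 called genes in the commoner direction and 1 in the rarer one were named, again by smallest p. HNRNPA1, HNRNPA1P48, SRSF6, the neighbouring genes and the pairs of relatives were added after their values were seen. Some genes that this rule names are not reported here.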

Additional observations from a re-analysis of the deposited data

How the results depend on the processing

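Counts of lower genes stayed at 19 for HNRNP in 16 of 17 alternatives and at 9 for SRSF in 15 of 17, with 17 and 8 against a 1.2-fold null and 8 SRSF with library size scaling. Count tests on recovered reads called 10562 genes with edgeR and 9724 with DESeq2. The 1.2-fold null left 5592 of 10449 genes called. Library size scaling gave 2 higher HNRNP genes in place of 1, medians of -0.46 and -0.41, and sums at 74.4% and 79.4% of DMSO. The higher SRSF genes were 1 in place of 2 without a filter, at a threshold of 0.01 and against the 1.2-fold null, and 1 to 2 with a replicate left out, because SRSF5 was not called. Leaving out replicates gave 9732 to 10247 called genes, medians from -0.60 to -0.54 for HNRNP (-0.54 without TP-064 replicate 1) and from -0.54 to -0.48 for SRSF, a difference of medians from -0.10 to -0.00763, and sums at 67.9% to 69.1% and 71.6% to 73.8% of DMSO. HNRNPA1L2, never called, ranged from -0.037 to 0.057 with a replicate left out and changed sign at -0.037 without TP-064 replicate 3, at -0.03 without DMSO replicate 1 and at -0.01 without DMSO replicate 3. No other member changed sign.

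With a replicate block 10491 genes were called, with 19 and 9 members lower and 1 and 2 higher. Deviations of samples with the same number correlated at -0.0859, 0.0659 and -0.0793, and those of samples with unlike numbers at -0.115 to 0.146. These values give no sign that the numbers pair the samples, but with 3 samples per group they cannot exclude it. Replicates of a group differed by more than counting error (chi-square per degree of freedom 3.06 to 7.63).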
